A study of Mus musculus with 3 samples.

Results

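Cells with high levels of p53 target transcripts were examined in 3 mouse gliomas profiled by droplet single-cell RNA sequencing. The rule summed the UMIs (unique molecular identifiers, 1 per captured transcript) of Mdm2, Ccng1, Gdf15 and Cdkn1a per 10000 UMIs of a cell. A cell was a member at a sum of 15 or more, provided that 6 immune genes (C1qa, C1qb, C1qc, Tyrobp, Fcer1g and Ctss) summed to under 15. Of 9286 kept cells, 196 were members: 9 (tumour 1, with 3361 kept cells), 42 (tumour 2, with 1548) and 145 (tumour 4, with 4377). Members were thus selected on the summed level of these 4 genes, which are described below with no test. They were compared within each tumour with low cells, whose first sum was under 4 under the same immune limit: 2705, 795 and 2594 cells. The 486, 169 and 1550 cells between these limits are called middle cells.

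The 3 tumours form a single group of 1 genotype, H3f3aK27M PdgfraD842V Trp53R270H, with no untreated or wild-type sample, and are numbered as in the labels. The hosts were mice of a B6.129 strain heterozygous for the reporter Gt(ROSA)26Sortm4(ACTB-tdTomato,-EGFP)Luo, which switches from red to green fluorescence. Brains were electroporated on postnatal day 1 or 2 with MADR constructs, which insert transgenes at a chosen locus, and GFP+ tumour cells were later sorted at day 150 (tumour 1), 106 (tumour 2) and 149 (tumour 4). Members and low cells of a tumour therefore share the animal and the library. That each cell carries the 3 altered proteins is assumed from the sorting and was not tested. R270H is a missense change in the DNA-binding domain of p53; the labels name no deletion of the mouse's own Trp53 and no promoter that drives the constructs. A 3′ library counts transcripts near their polyadenylation site and does not read the base changes that mark the altered alleles.

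The transcription factor p53, encoded by Trp53, is stabilised after DNA damage and other stress and switches on genes that halt the cell cycle, repair DNA, change metabolism or trigger apoptosis. Cdkn1a encodes p21, an inhibitor of cyclin-dependent kinases; Mdm2 encodes the ubiquitin ligase that marks p53 for degradation; Ccng1 encodes cyclin G1; and Gdf15 encodes a secreted stress cytokine. Each is a textbook p53 target, but each can also be induced by other routes, Cdkn1a by growth factor and differentiation signals and Gdf15 by the integrated stress response.

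The p53 protein binds pairs of a 10-base element, the p53 decamer, made of 3 purines, then C, 2 bases that are A or T, then G and 3 pyrimidines, a pattern that reads alike on both strands. RefSeq promoters (GRCm38.p6, 250 bases before to 50 after each start) were searched for it. The windows below, 5′ to 3′ on the gene's strand with each decamer in capitals, are shown because they belong to 3 of the 4 rule genes and to Bax, a p53 target outside the rule whose values follow.
Cdkn1a: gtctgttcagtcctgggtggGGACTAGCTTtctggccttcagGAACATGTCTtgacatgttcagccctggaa
Mdm2: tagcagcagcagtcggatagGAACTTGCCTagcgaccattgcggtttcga
Ccng1: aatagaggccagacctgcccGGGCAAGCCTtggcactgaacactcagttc
Bax: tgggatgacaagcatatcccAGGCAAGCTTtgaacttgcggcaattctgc
The Cdkn1a window (chr17:29090886-29090957, plus strand) held a pair of decamers 12 bases apart, the first starting at position -73 from an annotated start. The windows of Mdm2 (chr10:117710915-117710964, minus strand), Ccng1 (chr11:40755442-40755491, minus strand) and Bax (chr7:45467070-45467119, minus strand) held 1 decamer each. A pair with a spacer of at most 13 bases occurred in 24 of 32851 promoters (0.0731%), and a single decamer in 8.36%. Of the promoters of the 32 p53 targets outside the rule that were higher in members (in the test described further on), 26 genes had an entry, and 10 of 36 promoters (27.8%) held a decamer. Over the whole p53 target lists, called or not, 13 of 65 promoters (20%) held one. The other genes higher in members held one in 13 of 165 promoters (7.88%, from 132 genes with an entry) and the genes lower in members in 7 of 108 (6.48%, from 88), against 6.73% of the promoters of all genes tested (9174 with an entry). A match describes these letters only, and many known p53 sites lie outside such windows.

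Cdkn1a made up most of the sum that chose the members. Its UMIs were 70.7%, 62.8% and 80.3% of the members' sum in tumours 1, 2 and 4, it was the leading gene in 9 of 9, 38 of 42 and 144 of 145 members, and every member held it. In CPM (UMIs of a gene per 1000000 UMIs, summed over the cells of a state), Cdkn1a (ENSMUSG00000023067, chr17:29090976-29100727) stood at 1310.4, 4692 and 1804 in the members of tumours 1, 2 and 4, in that order here and below, and at 83.3, 53.1 and 135 in low cells. For Mdm2 (ENSMUSG00000020184, chr10:117688875-117710758) the levels were 125, 1696 and 140.3 in members and 33.02, 54.5 and 32.1 in low cells. Ccng1 (ENSMUSG00000020326, chr11:40748552-40755311) was at 376, 698 and 259 against 30.1, 24.5 and 24.5, and Gdf15 (ENSMUSG00000038508, chr8:70629393-70632456) at 41.8, 387 and 44.8 against 2.89, 3.56 and 4.05. Tumour 2 held the highest member level of all 4 genes, and its Mdm2 level was over 10 times those of the other 2 tumours. In all 3 tumours each of the 4 genes stood higher in members than in low cells. The rule fixes their sum and not each gene.

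The members of tumour 2 also differed most among themselves. The lowest, median and highest sum were 15.1, 18.9 and 22.5 per 10000 in tumour 1, while in tumour 2 they were 15.6, 37.2 and 266.9; tumour 4 had 15.01, 19.1 and 114.9. A sum of 50 or more was reached by 0, 17 and 5 members. All 4 genes were detected in 1, 20 and 22 members, while Cdkn1a alone was detected in 0, 3 and 10. Near the limit, 2, 5 and 50 members lay between 15 and 17, and 12, 8 and 70 cells between 13 and 15, so the limit cuts a continuous range in each tumour.

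**Figure D1:**
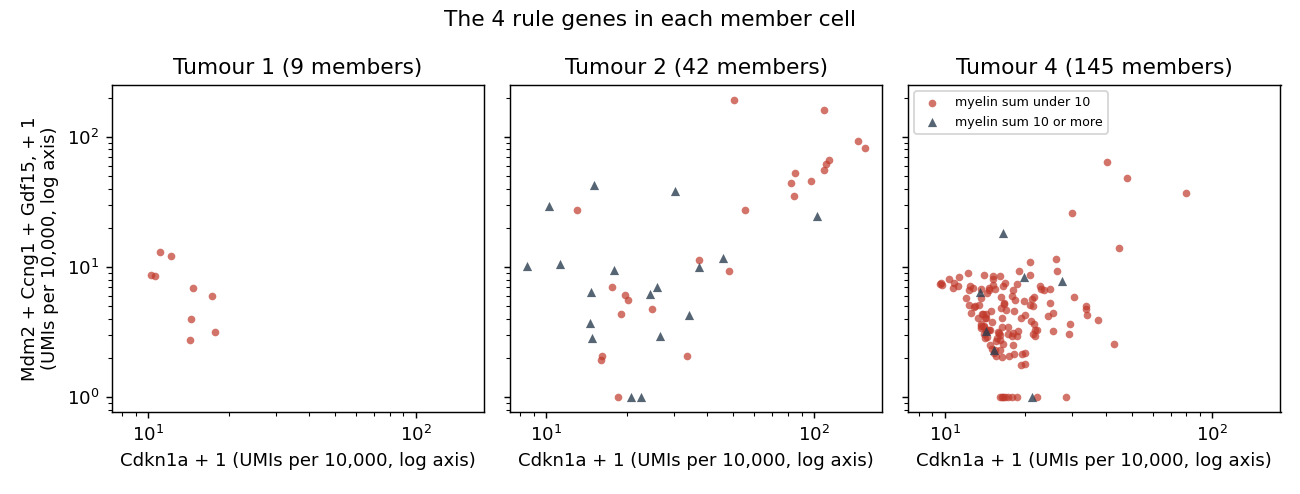
Each point is 1 member, with Cdkn1a on the x axis and the summed Mdm2, Ccng1 and Gdf15 on the y axis, both as UMIs per 10000 plus 1 on log axes, by tumour; triangles are members whose 6 myelin genes sum to 10 or more. Tumour 2 holds a set of cells high on both axes, which reach a sum of 266.9, while most members of tumours 1 and 4 sit near the limit of 15.

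Each rule gene was also set against cells chosen without it, a description added after the values had been seen and given with no test, since these genes chose the members. With members set by Mdm2, Ccng1 and Gdf15 alone (sum of 5 or more, low cells under 2), 18, 46 and 85 cells qualified. Their Cdkn1a level was 591.9, 4434 and 1297 CPM against 122.2, 118.9 and 293.4 in low cells, higher in 3 of 3 tumours. With members set by Cdkn1a alone at 15, only 2, 34 and 86 cells qualified. In those cells Mdm2 stood at 46.04, 1898 and 161.6 CPM against 37.7, 65.3 and 41.2, Ccng1 at 230.2, 581.4 and 270.6 against 39.2, 29.8 and 36.3, and Gdf15 at 46.04, 464.4 and 53.5 against 4.02, 5.02 and 7.04. The values of Mdm2 and Gdf15 in tumour 1 are 1 UMI each.

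The share of members among all kept cells was 0.268% in tumour 1, 2.71% in tumour 2 and 3.31% in tumour 4 (exact binomial 95% intervals 0.122 to 0.508, 1.96 to 3.65 and 2.80 to 3.89), a mean of 2.10% ± 1.61 (SD, n = 3). Kept cells include 161, 542 and 88 cells over the immune limit, which could not be members. These shares therefore do not rank the tumours by members among the cells that could qualify. Members at 10 per 10000 would make up 4.98% ± 3.73. Summed over cells, members held 71733, 705006 and 1674942 UMIs, so that 1 UMI was worth 13.9, 1.42 and 0.597 CPM, and low values in tumour 1 rest on single UMIs. Intervals cover counting error only. The median member had 6675, 12286 and 9821 UMIs, against 11828, 8472 and 9060 in low cells, and a mitochondrial share of 5.41%, 4.0% and 4.25% against 4.75%, 6.38% and 5.51%. Depth was lower in members of tumour 1 and higher in those of tumours 2 and 4, and the part of depth and mitochondrial share in the results below was not tested. Thinning all cells to 4000 UMIs also reset the states, to 28, 42 and 213 members, and the p53 targets outside the rule that were called higher numbered 17 of 54 tested, in place of 32 of 60. All 17 were among the 32, and 0 were lower.

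The libraries and the cell labels were checked once. The 3 libraries were distinct, with 6 to 20 barcodes shared between pairs among 9642. Scrublet called 0, 7 and 0 doublets, too few for a working call, so no cell was left out; 1 member of tumour 4 was among the cells of highest doublet score. Oligodendrocyte progenitor (OPC) markers summed to 10 or more per 10000 in 8 of 9 members of tumour 1 and 131 of 145 of tumour 4, but in 13 of 42 of tumour 2, against 636 of its 795 low cells. Endothelial and mural markers reached 10 in none of the 196 members, and microglia and macrophage markers in 0, 3 and 3. A single member of tumour 2 summed to 197.5 for 8 measured T and NK cell markers, and 1 cell supplied 96.7% of that tumour's member UMIs of Ccl5.

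Beyond the rule, the question was which other transcripts differ between members and low cells. Counts summed per tumour and state were tested with edgeR's quasi-likelihood test, the tumour as a block, over 12051 genes with the 10 rule genes left out. At an adjusted p under 0.05, 185 genes (1.54%) were higher in members and 124 (1.03%) lower. The median log2 fold change of all genes tested was -0.09. The calls depended on which tumours were kept: 1 gene was higher and 0 lower without tumour 1 and its 9 members. At an unadjusted p under 0.05 that fit had 544 and 467, against 632 and 736 with all 3 tumours. The cause of the loss of calls was not tested. Without tumour 2 the calls numbered 62 and 12, without tumour 4 110 and 66, and without the block 0 and 0 (246 and 98 at an unadjusted p under 0.05). With members at 10 per 10000 there were also 0 and 0 (406 and 456 unadjusted), and DESeq2 called 42 and 3. Each tumour is 1 library of 1 glioma. The p-values match a normal test of fold change over SE, and hardly reflect a gene's own spread between these 3 libraries. Txnip, described below, had the lowest p, although its differences in log2(CPM + 1) were -2.48, 5.60 and 3.00 in tumours 1, 2 and 4.

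Many other p53 targets were higher in members. Of 65 listed targets outside the rule, 60 passed the filter on low counts, 32 (53.3%) were higher and 0 lower, against 1.54% and 1.03% of all genes. A gene scarce in low cells could pass the filter (2.04 CPM in 3 sums) through the members, and could then hardly be called other than higher. Where the low cells of all 3 tumours met it by themselves, 27 of 54 targets (50%) were higher and 0 lower, against 1.34% of 10905 genes higher, at a median log2 fold change of 1.00 over the 54. The 5 called targets that did not are Pmaip1, Tnfrsf10b, Eda2r, Pidd1 and 9030617O03Rik. Over all 60 the median log2 fold change was 1.14. Summed over the 65 genes, members held 8685, 16213 and 9426 CPM and low cells 4463, 3149 and 5886, higher in 3 of 3 tumours (mean difference 6942 ± 5312 CPM, SD, n = 3; exact sign-flip permutation test, two-sided p = 0.25, the smallest it can give). The middle cells lay between, at 5708, 5253 and 6986 CPM. Across the alternatives the median stayed between 0.88 and 1.29, while the number called higher fell to 0 without the block, 0 with members at 10 and 1 without tumour 1.

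Growth arrest and feedback targets gave 11 of 18 tested genes higher. Trp53inp1, which encodes a nuclear cofactor of the p53 response, was at 83.6, 289 and 35.2 CPM in members and 4.56, 14.8 and 7.63 in low cells (log2 fold change 3.22, SE 0.38, adjusted p = 6.16e-14). Members lay above the low cells of their own tumour in each case. Plk2, a polo-like kinase, was at 83.6, 1099 and 121 against 43.03, 48.1 and 39.3 (log2 fold change 2.31, SE 0.34, adjusted p = 5.43e-09). Tumour 2 stood far above the other 2 here, with over 1000 CPM. Psrc1, a spindle protein, was at 237, 216 and 236 against 61.8, 11.4 and 57.2 (log2 fold change 2.5, SE 0.33, adjusted p = 4.64e-11), a like level in members of the 3 tumours. Zmat3, an RNA-binding protein induced by p53, was at 307, 162 and 124 against 59.8, 35.2 and 44.1 (log2 fold change 1.73, SE 0.31, adjusted p = 1.04e-05). The phosphatase gene Ppm1d, which feeds back on p53, rose by 1.71 on the log2 scale (SE 0.38, adjusted p = 0.000844). The long non-coding Trp53cor1 (lincRNA-p21), a neighbour of Cdkn1a, rose by 2.1 (SE 0.51), on 2 UMIs in tumour 1, and Gtse1, which restrains p53 in G2, by 2.98 (SE 0.48).

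The remaining 4 of these 11 genes were Sesn2, Ccng2, Btg2 and Gadd45g. Sesn2, a sestrin that restrains mTORC1, rose by 2.27 (SE 0.47) and Ccng2, cyclin G2, by 1.51 (SE 0.37), although Ccng2 was at 13.9 CPM in members and 17.3 in low cells of tumour 1. Btg2, an antiproliferative factor, was at 251, 1142 and 365 CPM against 129, 271 and 262 (log2 fold change 0.94, SE 0.28, adjusted p = 0.0349). Gadd45g, a stress sensor also used in neural differentiation, was at 1436, 3726 and 2383 against 1131, 686 and 1929.7 (log2 fold change 0.76, SE 0.23, adjusted p = 0.0474). These are the smallest fold changes of the 11 called, and for both genes the members of tumour 1 lay below the low cells of another tumour. Rprm, a G2 arrest gene, was at 725, 142 and 766 against 399, 37.8 and 625 (log2 fold change 0.74, SE 0.27, adjusted p = 0.140) and Gadd45b at 0, 312 and 193 against 27.5, 65.1 and 104 (log2 fold change 1.02, SE 0.34, adjusted p = 0.0856); neither passed the test.

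Targets with a role in apoptosis gave 11 of 17 tested genes higher, at a list median of 1.66, or 7 of the 12 whose low cells met the filter by themselves (median 1.15). Bax, which permeabilises the outer mitochondrial membrane, was at 892, 777 and 956 CPM in members and 316, 257 and 424 in low cells (log2 fold change 1.16, SE 0.25, adjusted p = 0.000720), and 186 of 196 members held a UMI of it. In each tumour the Bax level of members lay above that of its low cells. Bbc3 (Puma), a BH3-only protein, was at 181, 742 and 196 against 47.7, 31.6 and 50.8 (log2 fold change 2.61, SE 0.33, adjusted p = 2.38e-12). Phlda3, an inhibitor of Akt, was at 474, 942 and 562 against 132, 159 and 222 (log2 fold change 1.66, SE 0.27, adjusted p = 5.57e-07). Pmaip1 (Noxa), another BH3-only gene, was at 13.9, 275 and 2.99 against 3.13, 6.62 and 0.102 (log2 fold change 4.45, SE 0.50, adjusted p = 2.89e-15). That change rests mostly on tumour 2, where 22 of 42 members held Pmaip1, against 1 of 9 and 4 of 145 elsewhere.

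Death receptor genes were among them. Fas was at 41.8, 60.99 and 29.9 CPM against 8.42, 5.77 and 13.6 (log2 fold change 1.99, SE 0.44, adjusted p = 0.000720), and Tnfrsf10b, the mouse TRAIL receptor, at 13.9, 32.6 and 4.18 against 1.46, 0.613 and 0.273 (log2 fold change 4.3, SE 0.70, adjusted p = 4.32e-07). Eda2r, a receptor of the TNF receptor family, was at 41.8, 25.5 and 19.7 against 4.48, 0.981 and 3.47 (log2 fold change 3.09, SE 0.52, adjusted p = 1.35e-06). All 3 were scarce in low cells, and 54, 22 and 41 of 196 members held a UMI. The low cells were below the filter in all 3 tumours for Tnfrsf10b and in tumour 2 for Eda2r. Both genes were thus tested because of their level in members and could hardly be called other than higher. Aen, an exonuclease of apoptotic cells, rose by 1.74 (SE 0.32), Pidd1, the scaffold of the PIDDosome, by 2.67 (SE 0.56), and Ei24 by 1.14 (SE 0.31). Apaf1, the core of the apoptosome, rose by 1.8 (SE 0.51, adjusted p = 0.0221) with 0 UMIs in the members of tumour 1. The gene Perp could not be tested, with 35 UMIs in the members of tumour 2 and 0 in those of tumours 1 and 4.

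Targets in DNA repair and metabolism gave 10 of 25 tested genes higher. Ddit4l (Redd2), an inhibitor of mTORC1 signalling, was at 97.6, 155 and 30.4 CPM in members and 4.18, 3.31 and 2.69 in low cells (log2 fold change 4.25, SE 0.40, adjusted p = 3.09e-22). Polk, a translesion DNA polymerase, was at 83.6, 113 and 23.9 against 5.99, 7.24 and 10.2 (log2 fold change 2.61, SE 0.41, adjusted p = 1.32e-07). Rps27l, a ribosomal protein paralogue, was at 1743, 1586 and 1358 against 932, 418 and 775 (log2 fold change 0.95, SE 0.24, adjusted p = 0.00524), and its paralogue Rps27 may share reads with it. Ak1, adenylate kinase, was at 112, 82.3 and 113 against 34.3, 24.9 and 29.6 (log2 fold change 1.57, SE 0.34, adjusted p = 0.000547). For these 4 genes the members lay above the low cells in all 3 tumours. Tob1, an antiproliferative factor, rose by 1.96 (SE 0.32), Ckap2 by 2.01 (SE 0.36) and 9030617O03Rik, the mouse D-glutamate cyclase gene Dglucy, by 3.58 (SE 0.88) on 13 UMIs in all members. The excision repair gene Ercc5 (1.71, SE 0.41), Dcxr (1.73, SE 0.41) and the thiamine transporter Slc19a2 (2.33, SE 0.52) were also higher in the fit with 0 UMIs in the members of tumour 1. Gpx1 (167, 298 and 243 CPM against 203, 93.2 and 215; log2 fold change 0.36, SE 0.30, adjusted p = 0.776) and Tap1 (125, 224 and 145 against 105, 86.4 and 149.5; log2 fold change 0.32, SE 0.31, adjusted p = 0.825) were the most abundant of this list that did not pass.

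**Figure D2:**
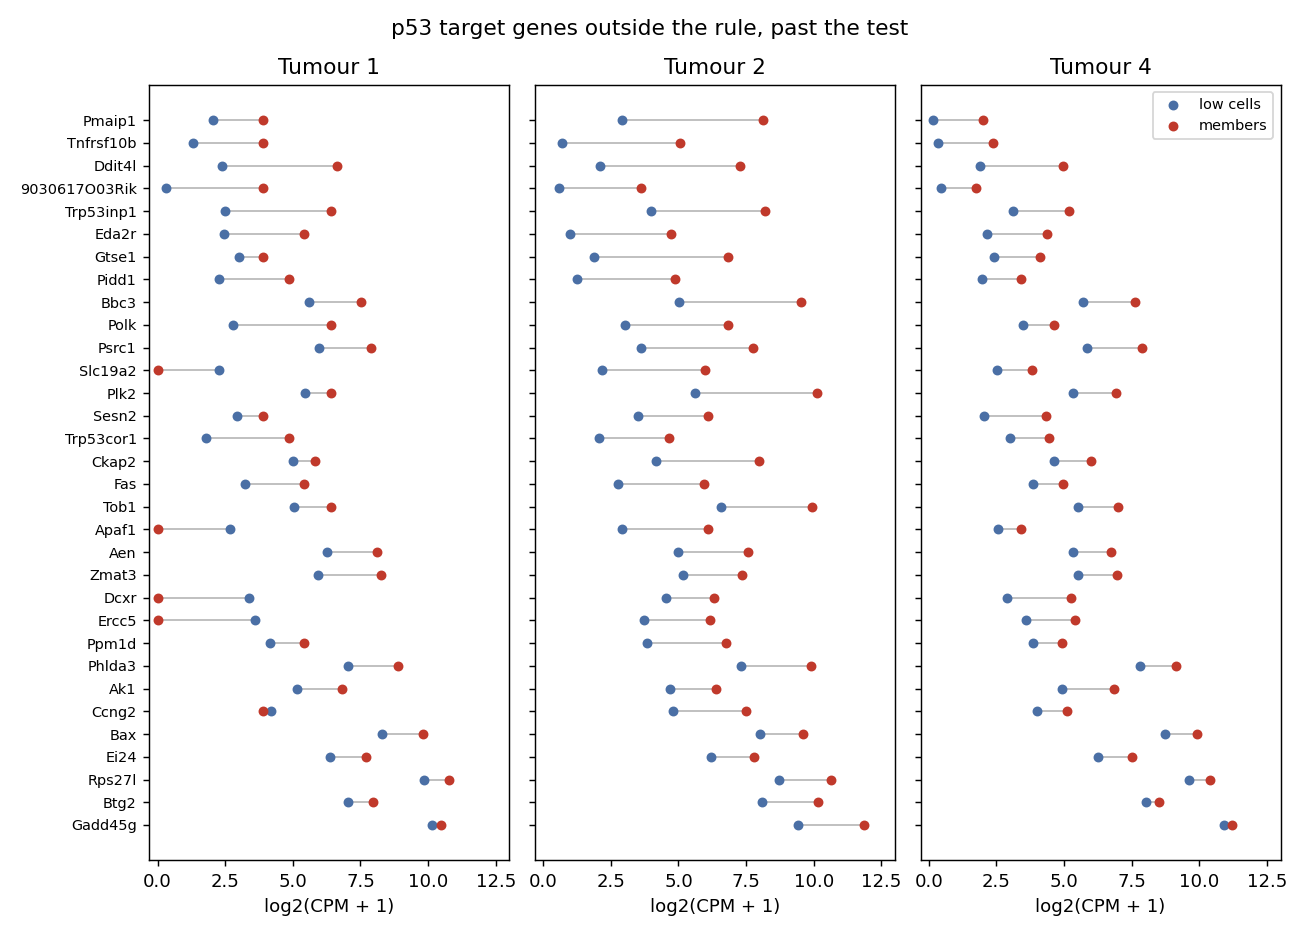
The 32 p53 targets outside the rule with an adjusted p under 0.05, as log2(CPM + 1) in members (red) and low cells (blue) of each tumour, sorted by log2 fold change. Members stand right of low cells for all 32 genes in tumours 2 and 4, and the exceptions in tumour 1 are Slc19a2, Apaf1, Dcxr and Ercc5 at 0 and Ccng2.

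Trp53 itself and its regulators did not pass the test. None of 15 tested genes was higher or lower by edgeR at an adjusted p under 0.05, and the list median was 0.09. Trp53 was at 97.6, 206 and 112 CPM in members and 123, 58.5 and 87.3 in low cells (log2 fold change 0.52, SE 0.32, adjusted p = 0.599), higher in tumours 2 and 4 and lower in tumour 1. Its counts do not part the R270H allele from the mouse's own. Cdkn2a, whose product p19Arf restrains Mdm2, was at 209, 138 and 206 against 154, 65.1 and 199 (log2 fold change 0.27, SE 0.30, adjusted p = 0.861). Mdm4, the partner of Mdm2, stood at 27.9, 78.01 and 54.3 against 38.4, 49.2 and 47.7 (log2 fold change 0.09, SE 0.35, adjusted p = 0.975). The ubiquitin ligase genes Rchy1 and Rfwd2 (Cop1), themselves p53 feedback genes, had log2 fold changes of 0.21 ± 0.33 and 0.20 ± 0.34 (± SE, as in every such pair below). The p53 relatives Trp63 and Trp73 had 0 UMIs in all members.

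The engineered genes and the transgene element gave no call. WPRE, a viral RNA element used in expression constructs, was at 502, 340.4 and 722 CPM in members and 601, 377 and 834 in low cells (log2 fold change -0.46, SE 0.25, adjusted p = 0.520), lower in 3 of 3 tumours. The receptor gene Pdgfra was at 69.7, 12.8 and 56.1 against 127, 26.99 and 80.5 (log2 fold change -0.99, SE 0.36, adjusted p = 0.143), and the histone gene H3f3a at 1255, 698 and 1249.6 against 1483, 898 and 1331 (log2 fold change -0.49, SE 0.23, adjusted p = 0.378). All 9 members of tumour 1, 33 of 42 of tumour 2 (78.6%) and 140 of 145 of tumour 4 (96.6%) held a UMI of WPRE. The shares of low cells that held one were similar, at 97.9%, 81.0% and 98.6%.

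In the lists of other stress pathways few genes were called. The shares to set beside these counts, here and for every later list, are those over all genes tested, 1.54% higher and 1.03% lower. In the list of ATF4 targets, which respond to amino acid shortage and endoplasmic reticulum (ER) stress, 3 of 28 tested genes were higher and 1 lower, at a median of 0.14. Ddit3 (Chop) was at 195, 1380.1 and 346 CPM against 110.5, 188 and 182 (log2 fold change 1.36, SE 0.29, adjusted p = 0.000416), Ddit4 (Redd1) at 69.7, 1041 and 137 against 28.4, 55.9 and 47.01 (log2 fold change 2.29, SE 0.34, adjusted p = 7.10e-09) and Nupr1 at 112, 204 and 74.6 against 84.8, 37.9 and 27.6 (log2 fold change 1.33, SE 0.33, adjusted p = 0.00520). Ddit4 is also a p53 target. The serine synthesis gene Psat1 fell by 1.18 (SE 0.32, adjusted p = 0.0142), and Atf4 itself was at 293, 894 and 263 against 210.5, 186 and 174 (log2 fold change 0.90, SE 0.28, adjusted p = 0.0579). ER chaperones gave 0 of 18 in either direction; Hspa5 (BiP) had a log2 fold change of 0.03 ± 0.28 and Calr of -0.53 ± 0.28. Heat shock genes gave 0 of 14, with Hsp90ab1 at -0.43 ± 0.22 and Hspa8 at -0.58 ± 0.22.

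Of 16 FoxO and glucocorticoid responsive genes, 3 were higher. Txnip, the thioredoxin-interacting protein that limits glucose uptake, was at 0, 2413 and 199 CPM in members and 4.59, 48.7 and 23.98 in low cells (log2 fold change 3.74, SE 0.35, adjusted p = 3.09e-22), with 0 UMIs in the members of tumour 1. The arrestin Arrdc3 of the same family was at 27.9, 1034 and 83.6 against 17.3, 90.7 and 26.2 (log2 fold change 2.11, SE 0.34, adjusted p = 2.54e-07). Ccng2, counted above, is the third, and the metallothionein Mt1 had a log2 fold change of 0.42 ± 0.25. Of 13 oxidative stress genes driven by NRF2, Hmox1, haem oxygenase, was at 27.9, 261 and 86.6 against 16.97, 50.7 and 28.6 (log2 fold change 1.6, SE 0.35, adjusted p = 0.000753) and Srxn1, sulfiredoxin, at 55.8, 191 and 71.6 against 31.3, 31.3 and 37.8 (log2 fold change 1.36, SE 0.35, adjusted p = 0.00757). In tumour 2, 1 cell supplied 65.2% of the member UMIs of Srxn1. The ferritin genes Ftl1 (0.36 ± 0.21) and Fth1 (-0.46 ± 0.21) did not pass.

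In the remaining stress lists, single genes passed. Fosl1 (2.14 ± 0.52) and Ier5 (1.29 ± 0.33) were the immediate early genes higher, of 20 tested, while Fos (-0.52 ± 0.23) and Jun (-0.05 ± 0.25) did not pass. Rsad2 (1.36 ± 0.34) was the only one of 22 interferon genes called, with Ifitm3 at -0.42 ± 0.25 and Bst2 at -0.44 ± 0.25. The receptor gene Tnfrsf12a (1.07 ± 0.31) was the only one of 20 senescence and secreted factor genes, where Hmgb1 (-0.63 ± 0.25) and Cxcl10 (-0.37 ± 0.28) did not pass. Of 17 hypoxia and glycolysis genes only Adm, adrenomedullin, passed (1.89 ± 0.42), and Aldoa (-0.50 ± 0.26) and Pgam1 (-0.13 ± 0.28) did not. These medians, -0.19, -0.29, 0.29 and -0.30, lay on both sides of the -0.09 of all genes.

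**Figure D3:**
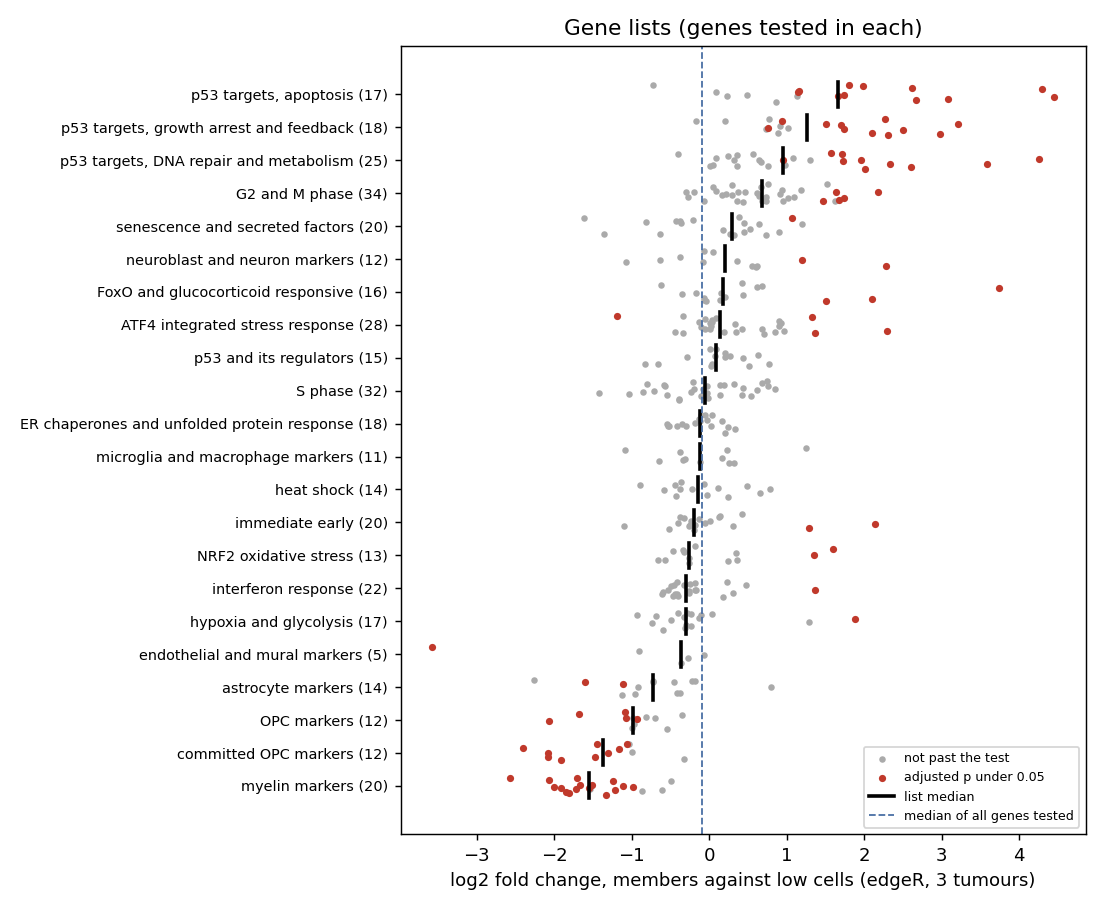
Log2 fold change of members against low cells for every tested gene of the lists with at least 5 tested genes; red points have an adjusted p under 0.05, black bars are list medians and the dashed line is the median of all genes, -0.09. The 3 p53 target lists lie at the top, with medians of 1.66, 1.26 and 0.95, and OPC, committed OPC and myelin markers at the bottom, with -0.98, -1.38 and -1.55.

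Among the 15 genes with the largest increases that moved the same way in all 3 tumours, 8 belong to the p53 lists already described. For 11 of the 15 the low cells did not meet the filter by themselves, so that these genes were tested because of their level in members; the exceptions are Ddit4l, Trp53inp1, Gtse1 and Ddias. Hmcn2, an extracellular hemicentin (chr2:31314415-31460738), was at 13.9, 48.2 and 4.18 CPM against 0.243, 0.613 and 0.102 (log2 fold change 5.62, SE 0.76, adjusted p = 1.79e-10), on 42 UMIs, of which 1 cell gave 52.9% of those of tumour 2. The gene 1700007K13Rik (chr2:28462001-28466332) was at 13.9, 34.04 and 19.1 against 0.701, 1.10 and 0.341 (log2 fold change 4.99, SE 0.62, adjusted p = 2.38e-12). Ddias, DNA damage-induced apoptosis suppressor (chr7:92857525-92874247), was at 27.9, 75.2 and 11.9 against 5.26, 2.33 and 2.38 (log2 fold change 3.18, SE 0.51, adjusted p = 2.21e-07). Lif, the leukaemia inhibitory factor cytokine (chr11:4257557-4272514), was at 13.9, 25.5 and 8.96 against 1.05, 0.368 and 2.42 (log2 fold change 3.25, SE 0.64, adjusted p = 0.000104); Lif has been described as a p53 target. The other three were 9530053A07Rik (3.15 ± 0.50), the synaptic vesicle protein gene Svop (2.86 ± 0.55) and the protease gene Prss56 (3.76 ± 0.94), the last on 11 UMIs in all members.

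Of the glial markers, most of those of committed OPCs and of myelin, and fewer of those of OPCs and astrocytes, were lower in members. The gap was widest in tumour 2. Summed OPC markers were at 2161, 801 and 3112 CPM in members and 2790, 2196 and 3634 in low cells. Committed OPC markers summed to 432, 1000 and 1032 against 587, 4352 and 1184, and myelin markers to 795, 17292 and 4433 against 1152, 58038 and 5315. Of 12 OPC markers tested, 5 were lower and 0 higher. The lineage factors Olig1 (697, 269.5 and 1511 CPM against 1127, 853 and 1648; log2 fold change -1.08, SE 0.25, adjusted p = 0.00144) and Olig2 (153, 52.5 and 307 against 209, 211 and 331; log2 fold change -1.09, SE 0.31, adjusted p = 0.0226) were among them, as were Ptprz1 (-0.93 ± 0.27), Matn4 (-1.68 ± 0.40) and C1ql1 (-2.06 ± 0.44). All 5 were lower in 3 of 3 tumours. Of 12 markers of committed OPCs, 9 were lower, led in level by Sirt2 (125, 407 and 309.9 against 193, 2013 and 332; log2 fold change -1.3, SE 0.29, adjusted p = 0.000720) and Bcas1 (55.8, 199 and 293 against 77.1, 571 and 357; log2 fold change -1.06, SE 0.31, adjusted p = 0.0312). Gpr17, a receptor of the committed stage, was at 0, 17.02 and 49.6 against 22.3, 198 and 72.8 (log2 fold change -2.08, SE 0.41, adjusted p = 9.28e-05).

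Of 20 myelin markers, 16 were lower and 0 higher. Mbp, myelin basic protein, was at 97.6, 4278 and 1192 CPM in members and 206, 10154 and 1587 in low cells (log2 fold change -1.11, SE 0.23, adjusted p = 0.000311), and Cldn11, a tight junction claudin of myelin, at 195, 1275 and 707 against 304, 4116 and 639 (log2 fold change -0.99, SE 0.25, adjusted p = 0.00781). In tumour 4 the Cldn11 level was higher in members. Of the astrocyte markers, S100b (13.9, 207 and 145 against 51.5, 941 and 209; log2 fold change -1.6, SE 0.33, adjusted p = 0.000200) and Gfap (27.9, 148 and 113 against 113, 205 and 219; log2 fold change -1.11, SE 0.32, adjusted p = 0.0271) were lower, 2 of 14. Of 12 neuronal markers, Nefl (55.8, 319 and 93.7 against 29.6, 18.4 and 27.3; log2 fold change 2.28, SE 0.36, adjusted p = 1.46e-07) and Cd24a (1.19 ± 0.34) were higher; 1 cell gave 68.9% of the Nefl UMIs of the members of tumour 2. Meg3 (-0.63 ± 0.33) and Stmn2 (0.61 ± 0.29) did not pass. No microglia or macrophage marker was called among 11 (Cd74 -0.31 ± 0.34, H2-Aa -0.64 ± 0.38), and among endothelial and mural markers Cldn5 alone was lower, on 3 UMIs in all members, with Kcnj8 at -0.36 ± 0.53 and Egfl7 at -0.28 ± 0.51. The ependymal Tppp3 (0.24 ± 0.31) and Foxj1 (-0.26 ± 0.71) did not pass, nor did Ccl5, the only T and NK marker tested (1.46 ± 0.49).

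The genes with the largest decreases in all 3 tumours included Mfsd2a, Tmem125, Cldn5, Gpr62, Mycl, Mog, Kcnq3, Bmp4 and Kif19a. Each of these had 0 UMIs in the members of tumour 1, so the direction there rests on what 9 cells could show at 13.9 CPM per UMI. Mog, a myelin surface protein, was at 0, 118 and 11.9 CPM in members and 2.02, 1158 and 26.3 in low cells (log2 fold change -2.57, SE 0.39, adjusted p = 4.72e-08). Tmem125 was at 0, 8.51 and 1.79 against 0.540, 209 and 4.46 (log2 fold change -3.98, SE 0.60, adjusted p = 2.97e-08). For both the difference in CPM was greatest in tumour 2. Mfsd2a had 1 UMI in all members.

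Cells with myelin transcripts made up a smaller share of members than of low cells in each tumour, a difference that was not tested. With 9 members, the 0 of tumour 1 says little. Myelin transcripts (Mog, Mag, Mobp, Mal, Ermn and Opalin at 10 or more per 10000) were carried by 0, 18 and 7 members, 25 of 196 (12.8%), and by 0.998%, 55.0% and 12.6% of low cells. In tumour 2 that is 42.9% of members against 55.0% of low cells. Its members with myelin transcripts had a median rule sum of 28 and a median of 93.3 UMIs per 10000 of the 65 other p53 targets, and its 24 members without them had 67.9 and 211.5. Low cells of tumour 2 had medians of 23.1 with myelin transcripts and 33.5 without for the same 65 genes. The p53 targets thus stood higher in members on both sides of this split, in the tumour that allows it; with 1 tumour there is no test.

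Compared only among cells without myelin transcripts, tumours 2 and 4 had enough members, 24 and 138. No gene of 11272 passed by edgeR in either direction (436 higher and 286 lower at an unadjusted p under 0.05), while DESeq2 called 42 higher and 0 lower, 12 of them p53 targets. The 56 p53 targets tested had a median log2 fold change of 1.35, against -0.05 for all genes, and 34 were higher and 0 lower at an unadjusted p under 0.05. With the 9 members of tumour 1 kept as well, 7 genes were higher, 4 of them p53 targets, and 0 lower. Of the 32 targets called over all cells, 30 could be tested here and none passed by edgeR. All 30 had a log2 fold change above 0, which was larger than over all cells for 20 (Bbc3 at 3.32 against 2.61, Phlda3 at 2.69 against 1.66) and smaller for 10 (Trp53inp1 at 2.87 against 3.22, Eda2r at 2.54 against 3.09). For the 14 myelin markers left to test the median was 0.51, against -1.55 for 20 over all cells. Over the 12 of them tested in every fit, the median was -1.23 in all cells of the 3 tumours, -1.22 in all cells of tumours 2 and 4, 0.42 without myelin transcripts in tumours 2 and 4, and 0.32 with tumour 1 kept. The same 4 fits gave medians of -0.98, -1.03, -1.29 and -1.13 for 12 OPC markers and -1.38, -1.40, -1.34 and -1.16 for 12 committed OPC markers. The sign of the myelin median thus differed between cells with and without this limit at the same tumours and genes. The limit itself takes out cells with myelin transcripts. In the low cells of tumour 2 the 20 myelin markers summed to 58038 CPM, and to 10168 CPM under the limit. The change in the myelin median is therefore no finding apart from the limit. The OPC and committed OPC medians were below 0 in all 4 fits.

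Cycling did not part members from low cells in the same way in each tumour. At 2000 UMIs per cell, 22.2% (exact binomial 95% interval 2.81 to 60.01), 52.4% (36.4 to 68.0) and 31.0% (23.6 to 39.2) of members were cycling, with 5 or more UMIs of 66 cycling genes. Low cells had 39.8%, 10.8% and 31.1%. The difference was -17.6, 41.6 and -0.11 percentage points (mean 7.95 ± 30.4, SD, n = 3; exact sign-flip permutation test, two-sided p = 1, smallest possible 0.25). Without thinning, 77.8%, 88.1% and 75.9% of members and 94.5%, 60.8% and 76.7% of low cells passed the same limit. The interval of the low cells of tumour 2 was 8.74 to 13.2. All these intervals cover the counting of cells within 1 library and are no test of members against low cells.

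**Figure D4:**
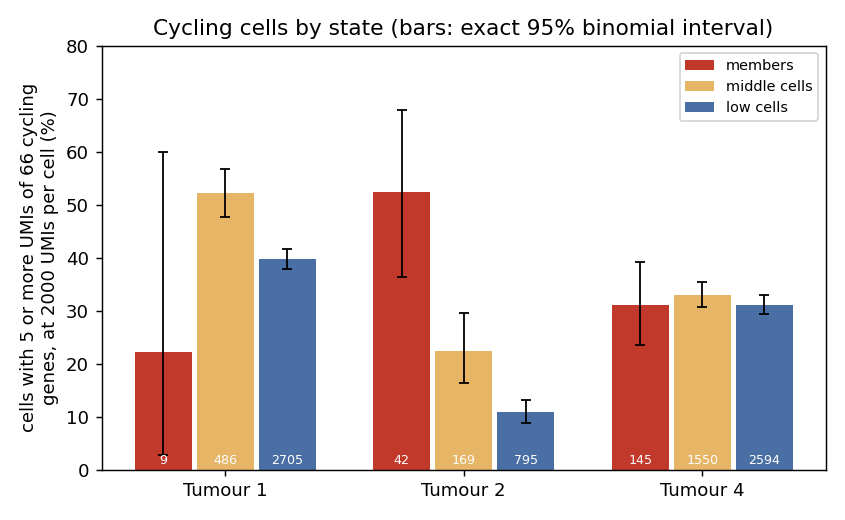
Share of cycling cells at 2000 UMIs per cell in members, middle cells and low cells of each tumour, with exact 95% binomial intervals and the number of cells inside each bar. Members of tumour 2 reach 52.4% against 10.8% of low cells, and in tumour 4 the shares are 31.0% and 31.1%.

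Cycling genes were then read by phase. Of 34 G2 and M phase genes, 5 were higher and 0 lower, at a list median of 0.68. They were Aurka (83.6, 102 and 53.1 CPM against 24.8, 6.01 and 20.7; log2 fold change 2.18, SE 0.37, adjusted p = 1.18e-06), the mitotic cyclin Ccnb1 (41.8, 219.9 and 141 against 68.7, 17.8 and 51.4; log2 fold change 1.64, SE 0.35, adjusted p = 0.000473), Hmmr (1.47 ± 0.37), Bub1 (1.74 ± 0.52) and Kif23 (1.68 ± 0.47). In tumour 1 the members lay below the low cells for Ccnb1, Bub1 and Kif23. Hmgb2, at 307, 3043 and 517 against 537, 271 and 448, was the most abundant gene of the list and did not pass (log2 fold change 0.73, SE 0.28, adjusted p = 0.203), nor did Ube2c (0.36 ± 0.31). Of 32 S phase genes none was called by edgeR, at a median of -0.06, with Slbp at 0.75 ± 0.34 and Tipin at -0.04 ± 0.34.

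The p53 targets outside the rule also followed the states cell by cell. Their sum per 10000 UMIs had a median of 80.6, 105.7 and 91.6 in members, 54.7, 47.6 and 66.7 in middle cells and 42.1, 26.8 and 56.1 in low cells. The order members, middle, low held in 3 of 3 tumours. Members nevertheless overlapped low cells: 55.6%, 78.6% and 29.7% of members lay above the 95th percentile of the low cells of their tumour. In tumour 4, with the most members, the lowest was at 39.6 and the highest at 335.9.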

How the data were processed

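Only the raw UMI counts deposited by the authors were used; the submitters' processing notes name STAR 2.5.1, Cell Ranger 1.3.0 and mm10. The rule for calling barcodes cells, and any removal of doublets, are not given in the sources used here. Tables held 27999 entries. Total depth was 47120617, 15231673 and 53551127 UMIs. Barcodes below 500 genes or above 20% mitochondrial UMIs were dropped. Members and gene lists (25) were chosen with earlier results of these data known. Counts summed per tumour and state were tested with edgeR 4.0.16 (TMM, filterByExpr, quasi-likelihood, tumour as block, Benjamini-Hochberg, threshold 0.05; R 4.3.3); SE is the fold change over the root of F. Samples share a number because both sums come from 1 library. DESeq2 1.42.0 was an alternative. Named genes are the 15 higher and 10 lower of largest fold change, called and moving the same way in all tumours, p53 targets called, and the most abundant genes per list; some of them are not reported here. The test was tried on simulated counts with the same spread for every gene and a change shared by all tumours. That trial does not cover genes whose change differs between tumours. Python 3.11.15 and scanpy 1.11.5 were used; positions come from GENCODE M21 (GRCm38).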

Additional observations from a re-analysis of the deposited data

How the results depend on the processing

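Genes higher and lower in members (185 and 124) numbered 42 and 3 with DESeq2, 322 and 125 with no filter on low counts, 0 and 0 with no replicate block, 131 and 21 with members at 20 per 10000, 0 and 0 with members at 10, 51 and 27 with cells thinned to 4000 UMIs, and 66 and 37 with states set on one random portion of each cell's UMIs and tested on the other. Leaving out a tumour gave 1 to 110 higher and 0 to 66 lower. RLE factors, no immune limit for low cells, either cell filter and leaving out the highest doublet scores kept both counts within 1.5 times. With rules chosen after seeing the data, Mdm2, Ccng1 and Gdf15 alone gave 31 and 1, and Cdkn1a alone 105 and 18. Without myelin transcripts (0 and 0), a limit of 5 gave 46 and 2; DESeq2 gave 42 higher and tumour 1 kept gave 7, both chosen after seeing the data. The number of p53 targets called higher (32) ranged from 0 without the block to 33 with no filter, was 19 with DESeq2, and 0 were called lower in any of these fits. The tumour is the pairing: both sums come from 1 library, and the fit without the block called 0 of the 99 listed or named genes called with it. Member share averaged 4.98% at 10 per 10000. Cldn5 turned to 0.58 with members at 10. Leaving out a tumour moved the mean cycling difference between -8.85 and 20.7 percentage points. The cause of these shifts was not tested. A test within cells with myelin transcripts, and leaving out a tumour within those without, were not run, since only 1 tumour remained with 10 cells on each side. Tumour 1 limits every result, with 1 UMI worth 13.9 CPM in its 9 members.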

Other observations

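Cells kept out by the immune limit also reached the sum. Of 161, 542 and 88 cells whose 6 immune genes summed to 15 or more, 13, 52 and 9 (8.07%, 9.59% and 10.2%) had 15 or more per 10000 of Mdm2, Ccng1, Gdf15 and Cdkn1a, and they are not members. In the 13, 52 and 9 cells Cdkn1a made up 95.2%, 81.4% and 82.4% of the sum, against 70.7%, 62.8% and 80.3% in members. Their Mdm2 level was 68.8, 248.96 and 28.6 CPM (10, 106 and 2 UMIs), against 125.5, 1696 and 140.3 in members. Whether these cells differ from members in other p53 targets was not tested.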
